A study of Rattus norvegicus with 29 samples.

Results

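Transcripts of antioxidant defence and of the metallothioneins were followed in the nucleus accumbens shell of rats given ethanol on different schedules. The set was a list of 43 genes, chosen by name, and a gene was measured where the platform annotation gave a probe set with exactly its symbol and no other. In this way 42 of the 43 genes were measured. The probe set of the remaining gene, Prdx1, also carries the symbol of Prdx1l1, so Prdx1 has no value among the members. The 42 genes were represented by 49 of the 31099 probe sets of the array, and the brightest probe set by mean over all 29 arrays stood for each of the 6 genes that had more than 1. All 42 lay above the filter on dim probe sets and were among the 21729 probe sets tested.

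Every animal was of the P line, rats bred to prefer alcohol, so no comparison with a line that does not prefer it was possible. The Continuous_ethanol group (10 arrays) had been exposed to ethanol continuously, the Limited_Ethanol group (10 arrays) had limited ethanol access, and the Water_only group (9 arrays) had no ethanol. According to the series' design there were 10 samples to a group, and 1 water sample was not analysed here. Age, sex, the ethanol concentration and the length of exposure are not given in the sources used here.

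Oxidation of ethanol and of its product acetaldehyde can raise the load of reactive oxygen species, and cells meet that load with linked enzyme systems. Superoxide dismutases convert superoxide to hydrogen peroxide, which glutathione peroxidases and peroxiredoxins remove with electrons from glutathione and thioredoxin. The transcription factor Nrf2, the product of Nfe2l2, is held in check by Keap1 and binds antioxidant response elements in front of many of these genes. Metallothioneins are small cysteine-rich proteins that bind zinc and copper, and in rodents the genes Mt1 and Mt2A are switched on through metal response elements by the zinc sensor MTF-1, and also by glucocorticoids. Mt3 encodes a metallothionein found mainly in brain.

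The promoters of the metallothioneins are printed because the 3 genes share a neighbourhood and a motif that the choice of members did not use. In the RefSeq annotation of the rat assembly GRCr8, Mt1, Mt2A and Mt3 follow one another on the minus strand of chromosome 19, between Nup93 and Mt4. The windows reach from 250 bases before to 50 bases after the annotated start and are written 5′ to 3′ on the strand of the gene. Those of the metallothioneins lie at chr19:10832926-10833225 (Mt1), chr19:10838659-10838958 (Mt2A) and chr19:10856031-10856330 (Mt3), all on the minus strand, and the capitals in them mark the core of the metal response element. The window of Gclm, the member with the largest positive difference between continuous ethanol and water, lies at chr2:213031885-213032184 on the plus strand, and the capitals in it mark the core of the antioxidant response element.
Mt1: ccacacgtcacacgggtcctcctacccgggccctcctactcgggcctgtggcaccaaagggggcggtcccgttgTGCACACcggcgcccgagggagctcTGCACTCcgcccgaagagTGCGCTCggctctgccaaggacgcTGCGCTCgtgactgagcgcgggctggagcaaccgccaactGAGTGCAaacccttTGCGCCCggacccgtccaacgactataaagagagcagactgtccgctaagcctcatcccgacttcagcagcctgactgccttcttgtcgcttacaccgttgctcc
Mt2A: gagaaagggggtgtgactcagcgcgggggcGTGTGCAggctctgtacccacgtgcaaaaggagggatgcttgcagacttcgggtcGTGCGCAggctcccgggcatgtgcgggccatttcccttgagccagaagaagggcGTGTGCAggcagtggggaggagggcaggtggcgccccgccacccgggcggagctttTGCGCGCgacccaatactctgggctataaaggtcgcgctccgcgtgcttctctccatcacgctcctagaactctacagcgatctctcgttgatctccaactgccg
Mt3: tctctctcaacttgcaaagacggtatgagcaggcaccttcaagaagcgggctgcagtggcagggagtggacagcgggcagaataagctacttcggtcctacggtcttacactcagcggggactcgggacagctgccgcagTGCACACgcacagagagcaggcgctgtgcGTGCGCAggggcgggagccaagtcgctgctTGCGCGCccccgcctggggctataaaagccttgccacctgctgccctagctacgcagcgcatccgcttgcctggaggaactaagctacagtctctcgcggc
Gclm: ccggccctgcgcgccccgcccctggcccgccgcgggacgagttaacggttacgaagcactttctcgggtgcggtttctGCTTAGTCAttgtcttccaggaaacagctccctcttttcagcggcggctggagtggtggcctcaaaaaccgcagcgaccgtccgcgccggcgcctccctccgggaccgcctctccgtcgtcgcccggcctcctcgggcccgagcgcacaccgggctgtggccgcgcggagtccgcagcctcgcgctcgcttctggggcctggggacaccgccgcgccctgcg

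The metal response element core was searched as TGCACNC and TGCGCNC on both strands. The window of Mt1 held 6 stretches of it, that of Mt2A held 4 and that of Mt3 held 3. Of 33469 promoter windows of this length in the annotation, 24.2% held at least 1 stretch and 1.13% held 3 or more. The antioxidant response element core was searched as TGACNNNGC and TGAGNNNGC on both strands, and no match printed in capitals touched a match of another searched motif. It occurred in 27.1% of all windows and in 20 of the 42 windows annotated for the members (47.6%), which stood for 36 of the 43 genes. Gclm had 1 stretch, and Srxn1, which encodes the sulfiredoxin that restores overoxidised peroxiredoxins, had 3. Nqo1 had 0 in its window, which says only that these letters are not in this stretch. The higher share in member windows was not particular to this motif. The metal response element core was in 33.3% of member windows, against 24.2% of all. The TATA box core, searched as TATAAA, was in 28.6%, against 14.2% of all. The window of Gclm also held 2 stretches of the metal response element core, and those of Mt1, Mt2A and Mt3 held 1 stretch each of the antioxidant response element core. A match is a description of letters and not evidence that a factor binds there.

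Before the members are described, a few arrays have to be set apart. On the second principal component, which carried 16.5% of the variance, 5 arrays scored between -22.2 and -15.6 while the other arrays scored between -3.30 and 20.2. The arrays at the low end were limited replicates 6 and 7 with water replicates 2, 5 and 6. Among all arrays, water replicate 9 was least like its group, with a median correlation of 0.979. The 3 prime minus 5 prime signal of actin and GAPDH control probe sets also differed between arrays. It averaged 0.57 in continuous, 0.50 in limited and 0.53 in water arrays. It was highest in continuous replicate 7 (0.66), followed by continuous replicate 3 (0.63). Continuous replicate 7 had the highest microglia score of all arrays, 0.35, and continuous replicate 3 the lowest leptomeningeal score, -1.54, where a score averages, over marker genes, how far an array lay on the log2 scale from the mean of the 29 arrays. Of 10 markers of medium spiny neurons, the main cell of the striatum, 9 were measured above the filter, Drd1, Drd2 and Ppp1r1b among them. So were 4 of 5 markers of cortical neurons, 12 of 12 of leptomeninges and 8 of 8 of microglia. Passing the filter therefore does not tell the accumbens from other brain tissue. Nothing in the labels ties each sample to an animal of its own, and p-values therefore reflect only how far these samples varied, possibly for technical reasons. In tissue RNA, fewer cells of a type cannot be told apart from less RNA per cell.

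No member passed the test in any comparison. Limma, with Benjamini-Hochberg adjustment over the 21729 probe sets, called 0 of the 42 members between continuous ethanol and water, where 0.152% of all probe sets (33) were called. Between limited ethanol and water 0 members were called, against 0% of all probe sets, and between limited and continuous ethanol 0 members, against 0.0046% (1 probe set). A test over the 3 groups together also called 0 members, against 0.0828% of all probe sets. The smallest adjusted p among the members was 0.211 for continuous ethanol against water, 0.972 for limited ethanol against water, 0.534 for limited against continuous ethanol, and 0.422 over the 3 groups. For every member and every comparison the values of the groups overlapped, and how often this holds over all tested probe sets was not counted.

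At an unadjusted p under 0.05, limma gave 6 of 42 members (14.3%) for continuous ethanol against water, where 16.1% of all probe sets reached that level. Of the 6, Gclm, Glrx, Prdx5 and Msra were higher with continuous ethanol (9.62% of all probe sets were higher) and Prdx6 and Txnip were lower (6.48% of all). For limited ethanol against water it was 2 members (4.76%), Sod2 and Msra, against 4.44% of all probe sets. Both were higher with limited ethanol, where 2.1% of all probe sets were higher and 2.34% lower. For limited against continuous ethanol it was 1 member (2.38%), Hmox2, against 9.31% of all probe sets. It was higher with limited ethanol, where 3.56% of all probe sets were higher and 5.74% lower. Over the 3 groups together it was 4 members (9.52%), against 11.6% of all probe sets. Each of these shares of members was thus near the background or below it. The median difference of the 42 members was 0.00 in the comparison of continuous ethanol with water and in that of limited ethanol with water, and 0.01 between limited and continuous ethanol. Over all tested probe sets the medians were 0.00, 0.00 and -0.01 in the same order of comparisons.

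Most of these differences in array signal had narrow intervals, each taken for 1 member at a time. How signal scales with the amount of transcript was not tested. For continuous ethanol minus water, the 95% interval of the difference lay within ± 0.2 on the log2 scale for 28 of 42 members. That is a change in signal of at most 1.15-fold either way. It lay within ± 0.3 (1.23-fold) for 37. For limited ethanol minus water the counts were 27 and 39, and for limited minus continuous ethanol 32 and 38. The narrowest interval for continuous ethanol minus water was that of Hmox2, -0.06 to 0.06, and the widest that of Gstm2, -0.61 to 0.14. Both comparisons with water use the same 9 water arrays, so their values are given side by side and not as independent evidence of each other.

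**Figure D1:**
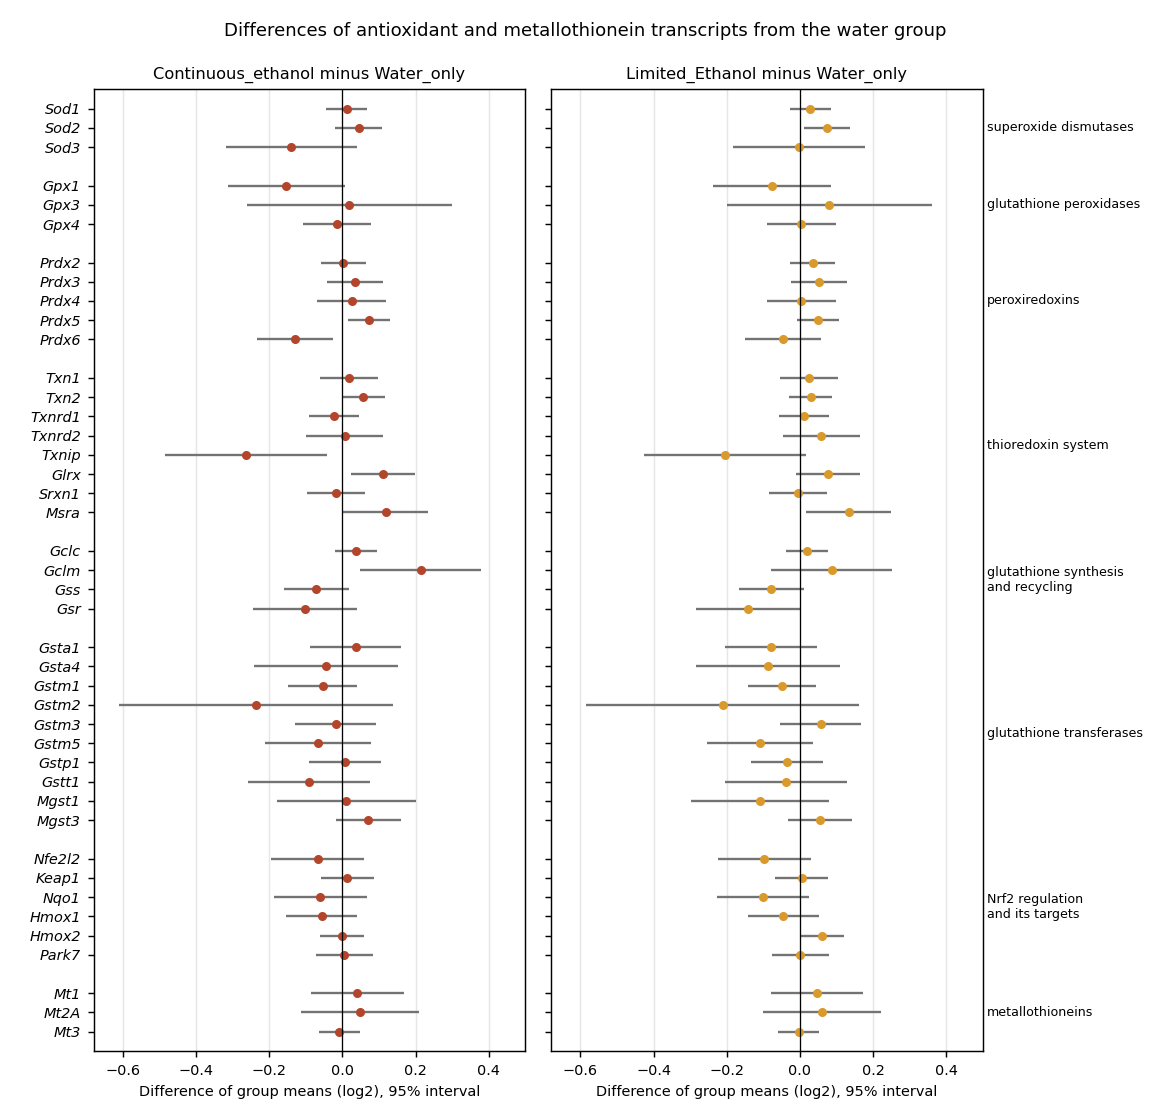
Difference of group means (log2, horizontal axis) for each of the 42 members, grouped by role down the page, for Continuous_ethanol minus Water_only (left) and Limited_Ethanol minus Water_only (right); points are differences and lines their 95% intervals from limma. Most points lie within 0.1 of 0 and most intervals cross it, and Txnip (-0.26), Gstm2 (-0.24) and Gclm (0.21) lie farthest out on the left, and Gstm2 (-0.21), Txnip (-0.20) and Gsr (-0.14) on the right.

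Among the superoxide dismutases, the cytosolic enzyme Sod1 was one of the steadiest transcripts of the set, at 13.67 ± 0.06 with continuous ethanol, 13.69 ± 0.04 with limited ethanol and 13.66 ± 0.05 in water (log2 expression, mean ± SD). Sod2 encodes the manganese enzyme of mitochondria. Its lowest, median and highest values were 10.94, 11.001 and 11.11 with continuous ethanol, 10.95, 11.04 and 11.14 with limited ethanol, and 10.87, 10.96 and 11.09 in water. The ranges of the 3 groups overlapped over most of their length, although 8 of 10 limited and 9 of 10 continuous arrays lay above the water mean. The difference was 0.07 ± 0.03 (SE) for limited ethanol minus water (limma, adjusted p = 0.972) and 0.04 ± 0.03 for continuous ethanol minus water (adjusted p = 0.483). Sod3, the secreted enzyme of vessel walls and matrix, differed by -0.14 ± 0.09 for continuous ethanol minus water and by 0.00 within rounding for limited ethanol minus water.

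The glutathione peroxidases all had differences within 0.2 of 0 in the comparisons with water. Gpx1, the main cytosolic peroxidase for hydrogen peroxide, averaged 12.66 ± 0.18 with continuous ethanol, 12.74 ± 0.15 with limited ethanol and 12.82 ± 0.20 in water, a difference of -0.15 ± 0.08 for continuous ethanol minus water (limma, adjusted p = 0.335). Gpx4, which reduces lipid peroxides in membranes, differed by -0.01 ± 0.05. Its dimmer probe set differed by -0.09 ± 0.06, and over all arrays its values ran against those of the brighter one (r = -0.27, a description over 29 arrays). Gpx3, the secreted peroxidase, had a difference of only 0.02 but the second widest spread of the set, with 9.36 ± 0.27 with continuous ethanol, 9.42 ± 0.29 with limited ethanol and 9.34 ± 0.38 in water, where 1 array reached 10.24.

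Peroxiredoxins are abundant peroxidases that pass electrons on from thioredoxin. Prdx5, found in mitochondria and peroxisomes, had lowest, median and highest values of 12.42, 12.48 and 12.54 with continuous ethanol, 12.41, 12.45 and 12.55 with limited ethanol, and 12.31, 12.43 and 12.54 in water. All 10 continuous arrays lay above the water mean, yet the groups overlapped because the highest water array reached the top of the continuous range. The difference for continuous ethanol minus water was 0.07 ± 0.03 (limma, adjusted p = 0.219). Prdx6, which has phospholipase activity besides its peroxidase activity, lay the other way, at 11.83, 12.05 and 12.32 with continuous ethanol, 12.03, 12.12 and 12.33 with limited ethanol, and 12.03, 12.19 and 12.32 in water. In 9 of 10 continuous arrays it was below the water mean, and the highest continuous array, replicate 7, equalled the highest water array. Its difference was -0.13 ± 0.05 for continuous ethanol minus water (adjusted p = 0.218) and 0.08 ± 0.05 for limited minus continuous ethanol (adjusted p = 0.593). Without the 5 arrays set apart above, these were -0.08 (adjusted p = 0.615) and 0.04. The remaining members of the family, Prdx2, Prdx3 and Prdx4, had differences between 0.00 and 0.05 in both comparisons with water.

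In the thioredoxin system the largest differences were those of Txnip, Msra and Glrx. Txnip encodes the protein that binds thioredoxin and blocks it, and it responds to glucose and glucocorticoids. Its lowest, median and highest values were 10.36, 10.89 and 11.23 with continuous ethanol, 10.74, 10.92 and 11.27 with limited ethanol, and 10.75, 11.19 and 11.85 in water. Of the arrays of each ethanol group, 8 of 10 continuous and 9 of 10 limited ones lay below the water mean, and the ranges overlapped. The difference was -0.26 ± 0.11 for continuous ethanol minus water, a level 0.833 times that in water (limma, adjusted p = 0.238), and -0.20 ± 0.11 for limited ethanol minus water (adjusted p = 0.972). The size of the Txnip difference depended on the arrays and on the markers held constant. For continuous ethanol minus water it was -0.12 ± 0.10 once the 5 arrays set apart above were left out, -0.12 ± 0.06 with the leptomeningeal score as a covariate and -0.40 ± 0.09 with the medium spiny neuron score as a covariate (limma, adjusted p = 0.723, 0.419 and 0.0737), the last covariate being chosen after seeing the data. The leptomeningeal score, over 12 of 12 markers, ranged from -1.54 to 0.63 in continuous, -0.39 to 0.67 in limited and -0.27 to 1.04 in water arrays, and the part of that tissue in the difference was not tested further.

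Msra encodes a methionine sulfoxide reductase, which repairs oxidised methionine in proteins. Its values were 8.81, 8.90 and 9.22 with continuous ethanol, 8.83, 8.95 and 9.14 with limited ethanol, and 8.47, 8.90 and 8.95 in water (lowest, median and highest). The medians of the continuous and water arrays were equal at this precision, and water replicate 6, at 8.47, lay far below the rest of its group. The differences were 0.12 ± 0.06 for continuous ethanol minus water (limma, adjusted p = 0.305) and 0.13 ± 0.06 for limited ethanol minus water (adjusted p = 0.972). With the 5 arrays set apart above left out, water replicate 6 among them, the first of these was 0.07 ± 0.05.

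Glrx, the cytosolic glutaredoxin that removes glutathione from protein thiols, had values of 10.97, 11.03 and 11.24 with continuous ethanol, 10.88, 11.04 and 11.11 with limited ethanol, and 10.81, 11.03 and 11.09 in water. The 3 medians nearly coincided, while all 10 continuous arrays lay above the water mean. The continuous and water medians were the same tied value, 11.0288. It occurred in continuous replicates 2 and 6, limited replicate 3 and water replicates 1 and 4, and why was not tested. Of the water arrays, 4 lay between 10.81 and 10.94 and the rest above 11. The difference for continuous ethanol minus water was 0.11 ± 0.04 (limma, adjusted p = 0.217). It was 0.06 ± 0.05 without the 5 arrays set apart and 0.05 ± 0.04 with array weights. The second probe set of Glrx gave 0.06 ± 0.05 (r = 0.66 with the first over 29 arrays). Thioredoxin itself, Txn1, and its mitochondrial form Txn2 differed by 0.02 ± 0.04 and 0.06 ± 0.03 for continuous ethanol minus water, and the thioredoxin reductases Txnrd1 and Txnrd2 by -0.02 ± 0.03 and 0.01 ± 0.05. Srxn1 differed by -0.02 ± 0.04.

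Glutathione synthesis held the largest positive difference of the set. Glutamate-cysteine ligase, the enzyme that sets the pace of glutathione synthesis, has a catalytic subunit encoded by Gclc and a modifier subunit encoded by Gclm. Values of Gclm were 8.33, 8.51 and 8.69 with continuous ethanol, 7.90, 8.42 and 8.67 with limited ethanol, and 7.93, 8.34 and 8.55 in water (lowest, median and highest). All 10 continuous arrays lay above the water mean, and their range was narrower than that of the other groups. The lowest arrays were limited replicate 7 (7.90) and water replicates 5 and 6 (7.93 and 7.95), which belong to the 5 set apart above. The difference for continuous ethanol minus water was 0.21 ± 0.08, a level 1.16 times that in water (limma, adjusted p = 0.211), with a 95% interval of 0.05 to 0.38. It was 0.11 ± 0.05 when those 5 arrays were left out and 0.13 ± 0.06 with array weights. For limited ethanol minus water it was 0.09 ± 0.08 (adjusted p = 0.972), and for limited minus continuous ethanol -0.13 ± 0.08 (adjusted p = 0.612).

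The catalytic subunit had a smaller difference than the modifier subunit in both comparisons with water, which was not tested as such. Gclc differed by 0.04 ± 0.03 for continuous ethanol minus water and by 0.02 ± 0.03 for limited ethanol minus water, and its second probe set by -0.02 ± 0.05 in both. Gss, the synthetase of the next step, differed by -0.07 ± 0.04 and -0.08 ± 0.04 in the same comparisons. Gsr, the reductase that regenerates glutathione, had values of 7.31, 7.53 and 7.81 with continuous ethanol, 7.25, 7.50 and 7.78 with limited ethanol, and 7.33, 7.65 and 7.99 in water. Although 9 of 10 limited arrays lay below the water mean, the groups shared most of their range. Its difference was -0.14 ± 0.07 for limited ethanol minus water (limma, adjusted p = 0.972) and -0.10 ± 0.07 for continuous ethanol minus water (adjusted p = 0.474). Without the 5 arrays set apart above, these were -0.08 and -0.03.

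Glutathione transferases, which attach glutathione to reactive compounds, formed the largest group with 10 members. For continuous ethanol minus water 4 differences were positive and 6 negative, with a median of -0.03 and a range from -0.24 to 0.07. For limited ethanol minus water 2 were positive and 8 negative, with a median of -0.06, and for limited minus continuous ethanol 4 were positive and 6 negative. Gstm2, of the mu class, had the lowest of these values, -0.24 ± 0.18 for continuous ethanol minus water, and also the widest spread of any member, as described below. Gsta1, of the alpha class, had values of 12.47, 12.70 and 12.95 with limited ethanol, against 12.61, 12.78 and 13.16 with continuous ethanol, and 12.56, 12.79 and 12.92 in water. The limited arrays lay somewhat lower, 8 of 10 below the continuous mean, with overlapping ranges. That difference was -0.11 ± 0.06 for limited minus continuous ethanol (limma, adjusted p = 0.548). The pi class enzyme Gstp1 and the microsomal enzymes Mgst1 and Mgst3 differed by 0.01 ± 0.05, 0.01 ± 0.09 and 0.07 ± 0.04 for continuous ethanol minus water. The other 5 transferases, Gsta4, Gstm1, Gstm3, Gstm5 and Gstt1, differed by -0.05 ± 0.10, -0.05 ± 0.05, -0.02 ± 0.05, -0.07 ± 0.07 and -0.09 ± 0.08 in that comparison. Rat glutathione transferases of a class are closely similar in sequence, so probe sets of near relatives could share signal, which was not tested.

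Neither the transcript of Nrf2 nor that of its regulator passed the test. Nfe2l2 averaged 10.23 ± 0.18 with continuous ethanol, 10.20 ± 0.10 with limited ethanol and 10.29 ± 0.13 in water, differences of -0.07 ± 0.06 and -0.10 ± 0.06 from water (limma, adjusted p = 0.606 and 0.972). Keap1 differed by 0.01 ± 0.04 in both comparisons with water. Nqo1 encodes a quinone reductase and is widely used as a readout of Nrf2 activity. Its values were 9.53, 9.92 and 10.24 with continuous ethanol, 9.72, 9.92 and 10.04 with limited ethanol, and 9.84, 10.00 and 10.14 in water. The water values lay inside the continuous range, and the differences were -0.06 ± 0.06 for continuous ethanol minus water (adjusted p = 0.651) and -0.10 ± 0.06 for limited ethanol minus water (adjusted p = 0.972).

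The heme oxygenases, which degrade heme to biliverdin, iron and carbon monoxide, were measured as an inducible and a constitutive form. Inducible Hmox1 had values of 7.50, 7.55 and 7.78 with continuous ethanol, 7.50, 7.58 and 7.71 with limited ethanol, and 7.47, 7.60 and 7.81 in water. The 3 ranges were nearly the same. The difference was -0.06 ± 0.05 for continuous ethanol minus water (limma, adjusted p = 0.564) and -0.05 ± 0.05 for limited ethanol minus water (adjusted p = 0.972). This probe set was dim, with a mean of 7.60 over all arrays against a lowest array median of 8.17. Whether signal this dim follows the transcript was not tested. Constitutive Hmox2 had values of 11.06, 11.11 and 11.31 with limited ethanol, against 10.98, 11.08 and 11.13 with continuous ethanol and 10.9994, 11.09 and 11.16 in water. In 9 of 10 limited arrays it was above the continuous mean, a difference of 0.06 ± 0.03 (adjusted p = 0.534), and the groups overlapped. Park7, which encodes the redox sensor protein DJ-1, differed by 0.01 ± 0.04 for continuous ethanol minus water and 0.00 ± 0.04 for limited ethanol minus water.

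None of the 3 metallothioneins passed the test with either ethanol schedule. Mt1 had lowest, median and highest values of 7.17, 7.50 and 7.72 with continuous ethanol, 7.26, 7.48 and 7.67 with limited ethanol, and 7.31, 7.41 and 7.62 in water. The groups overlapped, with differences of 0.04 ± 0.06 for continuous ethanol minus water (limma, adjusted p = 0.770) and 0.05 ± 0.06 for limited ethanol minus water (adjusted p = 0.973). These values rest on a probe set that had a correlation of only 0.11 over the 29 arrays with another probe set whose symbols include Mt1, so which transcript each measures was not settled. Mt2A had values of 11.90, 11.99 and 12.66 with continuous ethanol, 11.91, 12.0004 and 12.43 with limited ethanol, and 11.83, 12.04 and 12.22 in water. Continuous replicate 7, at 12.66, stood far above its group. Its difference for continuous ethanol minus water was 0.05 ± 0.08 (adjusted p = 0.794) with that array and -0.02 without it, and 0.06 ± 0.08 for limited ethanol minus water (adjusted p = 0.972). The limited minus water difference was 0.02 without limited replicate 6 and 0.17 with the astrocyte score as a covariate. Mt3 was among the steadiest transcripts of the set, with 14.32, 14.42 and 14.56 with continuous ethanol, 14.37, 14.43 and 14.47 with limited ethanol, and 14.36, 14.42 and 14.46 in water. Its differences were -0.01 ± 0.03 and 0.00 ± 0.03 within rounding, and their 95% intervals reached from -0.06 to 0.05 in both comparisons with water.

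**Figure D2:**
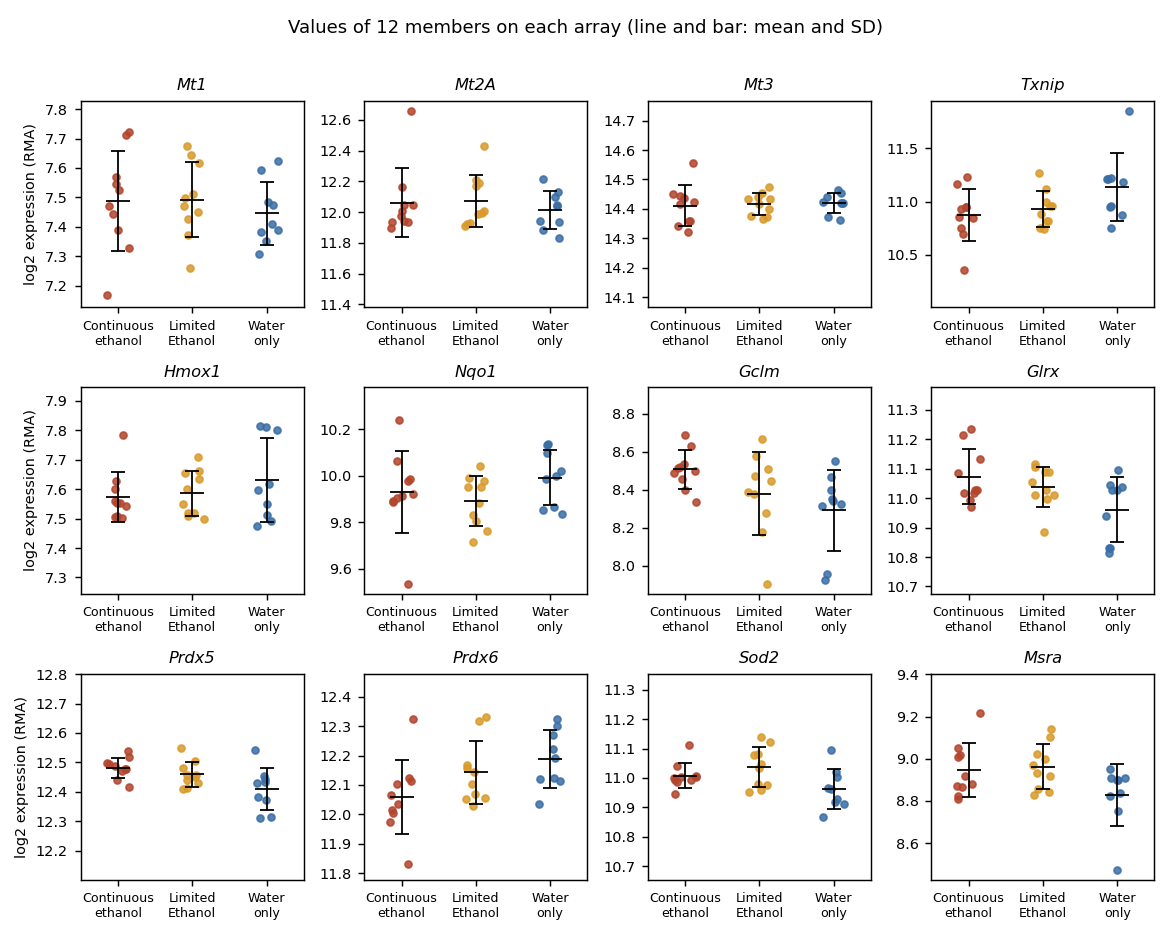
Log2 expression (vertical axis, RMA) of 12 members on each array, 1 point per array, by group (Continuous_ethanol, Limited_Ethanol, Water_only from left to right); lines and bars are the mean and SD of the group, and each panel has its own scale. The groups overlap in every panel, and single arrays lie apart, such as Mt2A at 12.66 in a continuous array, Txnip at 11.85 and Msra at 8.47 in water arrays.

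Members differed widely in how much they varied between arrays of a group. The SD within groups had a median of 0.10 over the members and 0.12 over all tested probe sets. Sod1 and Mt3 had the lowest, 0.05 each. Gstm2 (0.42) and Gpx3 (0.32) were above the 95th percentile of all tested probe sets (0.27), and 12 members, Txnip (0.25), Gsta4, Mgst1 and Sod3 among them, were above the 75th percentile (0.15). Both counts are near the shares that these percentiles set for all tested probe sets by definition, so they do not set the members apart.

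**Figure D3:**
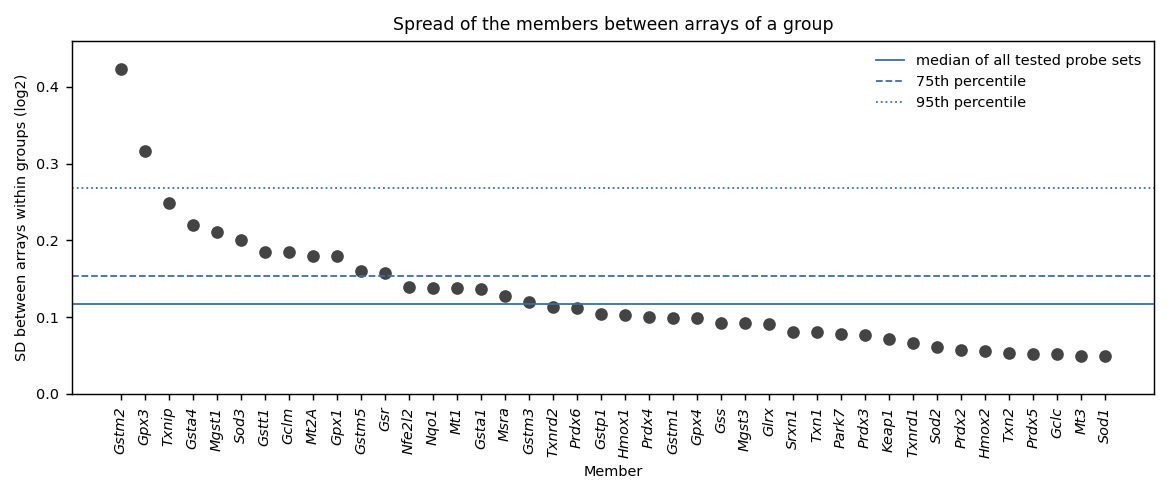
SD between arrays of a group (log2, vertical axis) for each of the 42 members, from the widest to the narrowest; blue lines give the median, the 75th and the 95th percentile of all tested probe sets. Gstm2 at 0.42 and Gpx3 at 0.32 lie above the 95th percentile, and 24 members lie below the median.

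Whether members varied together was asked for 11 pairs over the 29 arrays, with group means removed. Over all arrays, Nfe2l2 and Nqo1 were the only pair that passed. Their correlation was r = 0.76 (permutation p = 0.00011, adjusted p = 0.00121 over 11 pairs) and rho = 0.63 (permutation p = 0.00056, adjusted p = 0.00616). Within groups r was 0.80 in continuous, 0.82 in limited and 0.59 in water arrays (permutation adjusted p = 0.178, 0.00748 and 0.391). In the same order rho was 0.49, 0.88 and 0.60 (permutation adjusted p = 0.341, 0.0187 and 0.396). Only the limited arrays thus passed on their own. With the groups together, r was 0.66 without the 2 arrays farthest on Nfe2l2 and 0.68 without continuous replicate 7. Without the 5 arrays set apart above, r was 0.73 (permutation adjusted p = 0.0256) and rho 0.45 (permutation adjusted p = 0.189), so that the call on rho was lost. Both transcripts also followed the leptomeningeal score (r = 0.76 for Nfe2l2 and 0.74 for Nqo1). With that score removed from both, a step chosen after seeing the data, r was 0.44 (permutation p = 0.0131, adjusted p = 0.0719) and no longer passed, and rho was 0.38 (permutation adjusted p = 0.131). Nfe2l2 and Gclm passed only in that step, with r = 0.35 (permutation adjusted p = 0.147) and rho = 0.47 (adjusted p = 0.0595) before, and r = 0.52 (adjusted p = 0.0112) and rho = 0.57 (adjusted p = 0.0233) after that score was removed.

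The pairs among the neighbouring metallothionein genes did not pass, with Mt1 read from the probe set annotated to it alone (mean 7.48 over all arrays). Mt1 and Mt2A had r = 0.25 and rho = 0.10 (permutation adjusted p = 0.298 and 0.675), and r was 0.03 without continuous replicate 7. A brighter probe set, annotated to Mt1f, Ttr and Mt1 together (mean 11.32), had r = 0.74 with Mt2A, group means removed. That value is a description and was not tested. Whether Mt1 and Mt2A vary together is therefore not settled, because which transcript each probe set measures is not known. Mt1 and Mt3 had r = 0.33 and rho = 0.13 (permutation adjusted p = 0.214 and 0.675). Without continuous replicate 7 their r was 0.17, and it had opposite signs within groups, 0.58 in continuous, 0.37 in limited and -0.60 in water arrays, none of which passed. Of the other Nrf2 targets, Hmox1 had r = 0.42 with Nfe2l2 (permutation adjusted p = 0.147), which was 0.03 without the 2 arrays farthest on Nfe2l2 and so rested on them. Gclc had r = 0.30, Srxn1 r = 0.05 and Txnrd1 r = -0.27 with Nfe2l2 (permutation adjusted p = 0.230, 0.806 and 0.214), and their rho was 0.21, -0.26 and -0.26 (permutation adjusted p = 0.534, 0.413 and 0.413). Without continuous replicate 7, r was 0.11 for Gclc and -0.34 for Srxn1. The groups differed in sign for Srxn1, whose r with Nfe2l2 was 0.54 within continuous, -0.74 within limited and -0.13 within water arrays, with permutation adjusted p-values of 0.178, 0.0430 and 0.871, so that the value within limited arrays passed on r, although not on rho (-0.67, permutation adjusted p = 0.143). Mt1 and Mt2A with Txnip, and Gstm1 with Gstm2, had r of 0.20, 0.35 and 0.33 and rho of 0.11, 0.42 and 0.08 (permutation adjusted p = 0.339, 0.177 and 0.214 on r, and 0.675, 0.106 and 0.675 on rho). Within continuous arrays Mt2A and Txnip passed on rho (0.87, permutation adjusted p = 0.0239), although not on r (0.56, permutation adjusted p = 0.178). Their rho was 0.05 within limited and 0.58 within water arrays (permutation adjusted p = 0.944 and 0.396).

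Arrays differed in their markers of other cells, and each member was also set against 9 marker scores, a comparison added after seeing the data. Of 378 relations over 29 arrays with group means removed, 55 passed on Pearson's r (permutation test, adjusted over the 378), 46 without continuous replicate 7 and 39 in both cases. The share of all tested probe sets that follow these scores was not computed, so neither this count nor those below can be called particular to the members. The leptomeningeal score, from fibroblast genes of the membranes that cover the brain such as Igf2, Ogn and Mgp, had the most, 11 of 42 members, all positive, and all 11 also passed without continuous replicate 7. Gstm2 followed it most closely, with r = 0.95 and rho = 0.90 (permutation p = 1e-05 each, the smallest the resamples can give, adjusted p = 0.000756 and 0.00151). Its r was 0.89 without the 2 arrays farthest on the score and 0.98, 0.97 and 0.88 within continuous, limited and water arrays. Txnip had r = 0.84 and rho = 0.73 (permutation adjusted p = 0.000756 and 0.00151), and r = 0.73 without the 2 farthest arrays. The others were Gstt1 (r = 0.82), Gstm5 (0.80), Gpx1 (0.79), Nfe2l2 (0.76), Nqo1 (0.74), Gstp1 (0.74), Gsta4 (0.73), Txn1 (0.64) and Sod3 (0.60), and 9 of the 11 passed on both measures.

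Of the metallothioneins, Mt2A followed other scores and kept both relations without continuous replicate 7. Mt2A went with the microglia score at r = 0.84 and rho = 0.78 (permutation adjusted p = 0.00126 and 0.00151). Its r was 0.67 without the 2 farthest arrays, 0.72 without continuous replicate 7, and 0.98, 0.81 and 0.66 within continuous, limited and water arrays. With the astrocyte score Mt2A had r = 0.78 and rho = 0.63 (permutation adjusted p = 0.00354 and 0.00928), and r = 0.55 without continuous replicate 7. Mt3 had r = 0.63 with the astrocyte score (permutation adjusted p = 0.0285), which was 0.33 without continuous replicate 7 (permutation adjusted p = 0.235), so that relation rested on 1 array. Of the 6 members that passed with the microglia score, Mt2A was the 1 that also passed without continuous replicate 7. Mt1, read from the probe set annotated to it alone, passed with none of the 9 scores.

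With neuronal scores some members ran the other way. All 8 members that passed with the medium spiny neuron score ran against it, Gstm2 (r = -0.66) and Txnip (r = -0.65) among them, while on rho, by permutation and adjusted, 2 of the 8 also passed. Msra ran with the cortical neuron score at r = 0.73 and rho = 0.71 (permutation adjusted p = 0.000756 and 0.00462), and r was between 0.66 and 0.79 within the groups. Mgst3 did so at r = 0.64 and rho = 0.64 (permutation adjusted p = 0.00843 and 0.0131). Of the 6 members that passed with this score, these 2 were positive and 4 negative. The negative ones were Gpx3 (r = -0.62), Mgst1 (-0.62), Gsta4 (-0.58) and Gstp1 (-0.53), with permutation adjusted p-values of 0.00756, 0.00843, 0.0175 and 0.0396. Their rho was -0.64, -0.53, -0.65 and -0.54 (permutation adjusted p = 0.0131, 0.0550, 0.0113 and 0.0550), so Mgst1 and Gstp1 passed on r alone, and Gstp1 did not pass without continuous replicate 7 (r = -0.48, permutation adjusted p = 0.0854). The scores themselves share arrays and tissue, so these relations are not independent of each other.

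**Figure D4:**
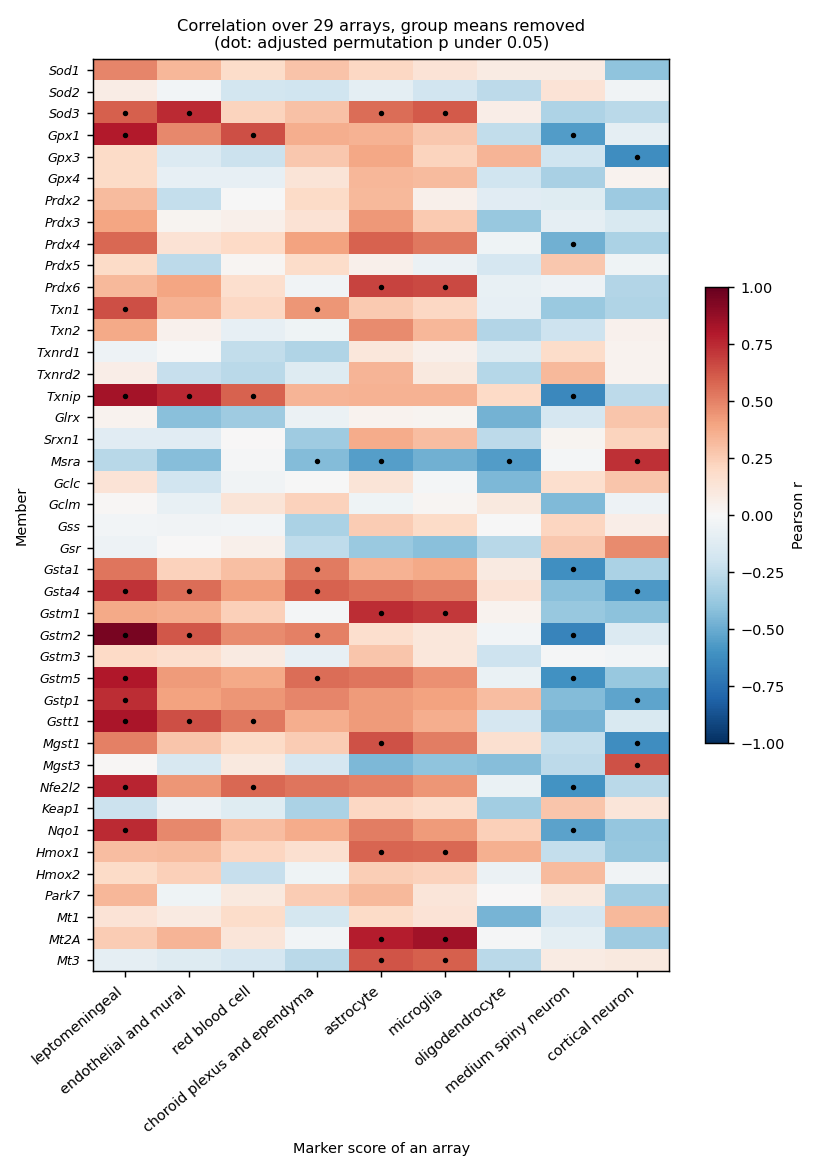
Pearson's r (colour, from -1 in blue to 1 in red) over 29 arrays, group means removed, between each of the 42 members (vertical axis) and each of 9 marker scores of an array (horizontal axis); a dot marks an adjusted permutation p under 0.05. The leptomeningeal column holds 11 dots, all red, with Gstm2 (0.95) the darkest, and Mt2A is darkest in the astrocyte (0.78) and microglia (0.84) columns.

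**Figure D5:**
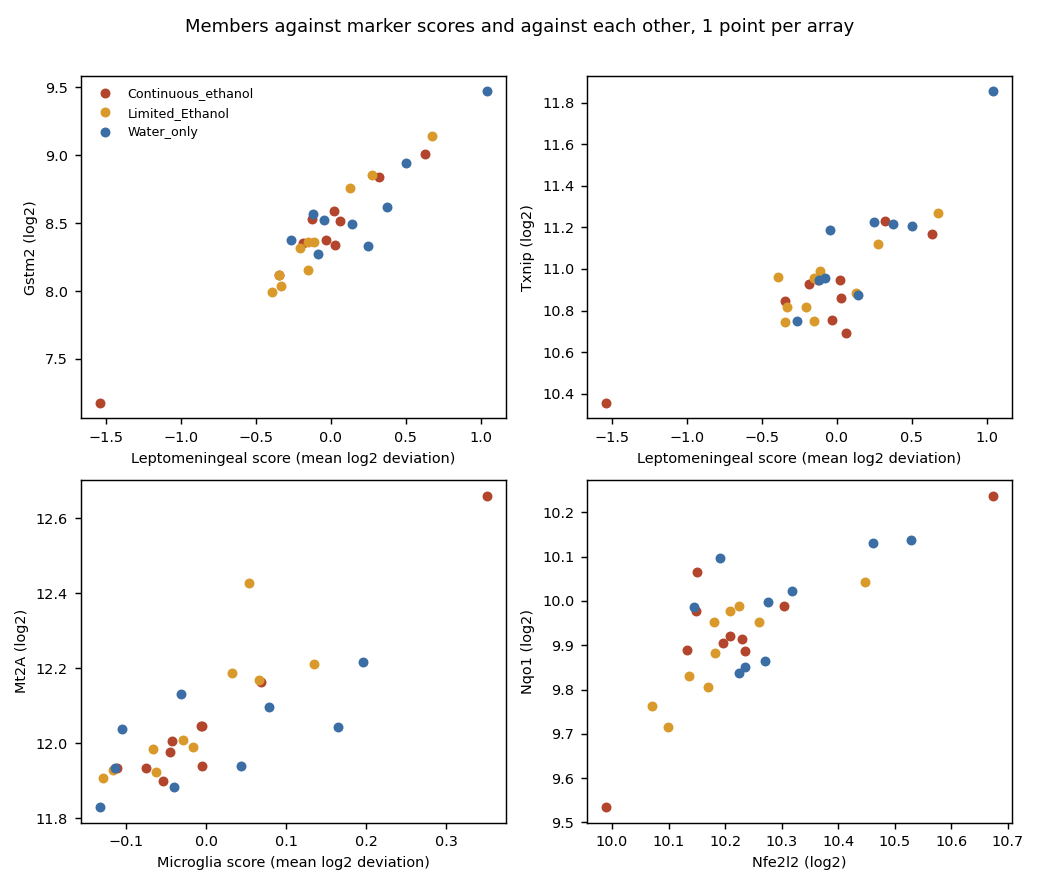
Values of 1 array per point, coloured by group: Gstm2 and Txnip (log2) against the leptomeningeal score, Mt2A (log2) against the microglia score, and Nqo1 against Nfe2l2 (both log2). Points of all 3 groups fall along the same bands, the continuous array with a leptomeningeal score of -1.54 has the lowest Gstm2 (7.18), and the continuous array with the highest microglia score has the highest Mt2A (12.66).

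Other genes of the same pathways were listed beside the members. Of 50 other tested antioxidant and Nrf2 pathway genes, limma called 0 as higher and 0 as lower in each of the 3 comparisons, with a median difference of 0.00 for continuous ethanol minus water and -0.01 for limited ethanol minus water. At an unadjusted p under 0.05 limma gave 8 of them (16%) for continuous ethanol against water, 2 (4%) for limited ethanol against water and 4 (8%) for limited against continuous ethanol. These shares lay slightly below those of all probe sets, which were 16.1%, 4.44% and 9.31% in the same order. The smallest p-values for continuous ethanol against water were those of Hagh, a hydrolase of the glyoxalase pathway (0.13 ± 0.04, adjusted p = 0.181), Sesn1, a stress-inducible sestrin (-0.11 ± 0.04, adjusted p = 0.183), and the thioredoxin-like Txnl1 (0.17 ± 0.06, adjusted p = 0.191). Each of these had all 10 continuous arrays on 1 side of the water mean. For limited ethanol against water they were Sesn3, Sesn1 and the cystine transporter subunit Slc3a2 (-0.15, -0.09 and -0.09, limma adjusted p = 0.972 each). For limited against continuous ethanol they were Ggt1, which cleaves extracellular glutathione (0.18), Gstt2 (0.15) and Hagh (-0.10), with limma adjusted p-values of 0.526, 0.526 and 0.529.

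Of 12 tested enzymes of ethanol, aldehyde and acetate oxidation, limma called 0 in any comparison, and 1, 0 and 0 reached an unadjusted p under 0.05 for continuous against water, limited against water and limited against continuous. As shares these were 8.33%, 0% and 0%, below the 16.1%, 4.44% and 9.31% of all probe sets. Their median difference was -0.01 for continuous ethanol minus water and -0.05 for limited ethanol minus water. Adh5, Aldh7a1 and Aldh2, the mitochondrial enzyme that clears acetaldehyde, differed by 0.07 ± 0.04, -0.11 ± 0.06 and -0.10 ± 0.06 for continuous ethanol minus water (limma, adjusted p = 0.297, 0.344 and 0.396). For limited ethanol minus water the smallest p-values belonged to Aldh1a1 (-0.21 ± 0.13), to Cat, the catalase that can oxidise ethanol in brain (-0.09 ± 0.06), and to Aldh7a1 (-0.08 ± 0.06). For limited minus continuous ethanol they belonged to Adh5 (-0.06), Aldh6a1 (-0.08) and Acss1 (-0.07).

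Of 20 tested genes of zinc and copper handling, limma called 0 in any comparison, and 2, 0 and 4 reached an unadjusted p under 0.05. As shares these were 10%, 0% and 20%, beside 16.1%, 4.44% and 9.31% of all probe sets. The list had medians of 0.00, -0.02 and -0.02 for continuous minus water, limited minus water and limited minus continuous. The zinc importer Slc39a6 differed by 0.12 ± 0.05 for continuous ethanol minus water (limma, adjusted p = 0.262) and by -0.14 ± 0.05 for limited minus continuous ethanol (adjusted p = 0.526). The copper pump Atp7b and the transporter Slc30a10 differed by -0.10 ± 0.04 and 0.16 ± 0.09 for continuous ethanol minus water (adjusted p = 0.263 and 0.337). The zinc transporters Slc30a3, Slc30a4 and Slc39a14 had the smallest p for limited ethanol minus water (-0.12, 0.08 and -0.05), and the copper importer Slc31a1 and Slc30a9 for limited minus continuous ethanol, beside Slc39a6 (0.10 and -0.11).

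Of 9 tested glucocorticoid-responsive genes, listed because glucocorticoids also induce metallothioneins and Txnip, limma called 0 in any comparison. At an unadjusted p under 0.05 it gave 4 of them (44.4%) for continuous ethanol against water, 2 (22.2%) for limited ethanol against water and 0 for limited against continuous ethanol, beside 16.1%, 4.44% and 9.31% of all probe sets. Their median difference was -0.13 for continuous ethanol minus water and -0.10 for limited ethanol minus water, beside medians of 0.00 over all tested probe sets, and 0.04 for limited minus continuous ethanol. Fkbp5, a chaperone that dampens the glucocorticoid receptor, differed by -0.24 ± 0.06 for continuous ethanol minus water (limma, adjusted p = 0.101) and -0.18 ± 0.06 for limited ethanol minus water (adjusted p = 0.972). Tsc22d3 differed by -0.14 ± 0.04 and -0.10 ± 0.04 in the same comparisons (adjusted p = 0.127 and 0.972). The other gene named for continuous ethanol was Klf9 (-0.09 ± 0.04), and for limited ethanol the kinase gene Sgk1 (-0.13 ± 0.07). For limited minus continuous ethanol Tsc22d3, Pdk4 and Fkbp5 differed by 0.05, 0.14 and 0.06. This short list was chosen with earlier results of these data known, and both comparisons with water use the same water arrays. Its differences were not followed under the other settings or without the arrays set apart above. Whether the list stands apart from all probe sets, and any tie to Txnip or the metallothioneins, was not tested.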

How the data were processed

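RNA of the nucleus accumbens shell had been extracted with Trizol and RNeasy columns and hybridised as biotin-labelled cRNA to 29 Affymetrix rat arrays, per the labels' protocols. The values are log2 expression levels that the authors made with RMA (background correction, quantile normalization and summary of probes), per the submitters' processing notes, and the software version is not given in the sources used here. The log base was read from the deposited values, 4.04 to 16.0. This step gives all arrays nearly one distribution, so a shift of all transcripts together would not show. All columns carried a sample (0 without one). Depth does not apply to arrays, and their number limits the precision.

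The platform annotation, which can be old, gave 1 symbol to 20832 probe sets, several to 436 and none to 9831. The table's 57 control probe sets and the dimmest 30 percent (mean of 6.86 or less) were not tested, which left 21729. All 29 arrays entered 1 model by group, with lmFit and eBayes (limma 3.58.1, R 4.3.3). Tests were two-sided, with Benjamini-Hochberg adjustment over all tested probe sets and a threshold of 0.05. The fit was tested on simulated data. Correlations used group-centred values and permutation tests with two-sided p. Promoter windows came from RefSeq, assembly GRCr8, matched by gene symbol.

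The members, lists and rules were chosen with earlier results of these data known. Mt1, Mt2A, Mt3, Txnip, Hmox1 and Nqo1, any member past the threshold and the 4 members of smallest p in each comparison were given with lowest, median and highest values. From each list of other genes the 3 of smallest p in each comparison were named. Marker lists covered astrocytes, endothelial and mural cells, leptomeninges, choroid plexus and ependyma, oligodendrocytes, microglia, medium spiny neurons, cortical neurons and red blood cells.

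Alternatives were other filters, the replicate number as a block, array weights, a robust prior with a trend, a repeated quantile normalization, centring by the array median, a 3 prime minus 5 prime covariate, leaving out arrays, only the groups compared, other rules for a gene's probe set, and marker scores as covariates. The covariates for cortical neurons, medium spiny neurons and microglia, the removal of a score from pairs, and the relations with marker scores were chosen after seeing the data. The labels do not say that a replicate number marks a shared animal or batch, and 12 of the 28 same-numbered pairs of arrays had a correlation over 0.1 (2 of 29 arrays deviated most like their own number), so the model has no block.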

Additional observations from a re-analysis of the deposited data

Results flagged for a closer look

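In 126 groups of arrays (42 members in 3 groups), the gap between the highest or lowest array and its nearest neighbour was divided by the range of the group and set against the 95% critical value of Dixon's test. Of these, 20 single arrays in 18 members were above it. Chance alone marks about 1 in 20 groups, and arrays share their deviations across genes. No explanation was tested.

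Continuous replicate 7 accounted for 10 of the 20 and was the highest array of its group in each. It had 13.56 for Gpx4, 13.48 for Prdx2, 11.66 for Prdx3 and 10.83 for Prdx4 (log2 expression). Among transferases it had 13.16 for Gsta1, 13.24 for Gstm1 and 13.22 for Gstm5. It also had 7.78 for Hmox1, 10.67 for Nfe2l2 and 12.66 for Mt2A. The same array had the highest microglia (0.35) and astrocyte (0.25) scores of all arrays and a leptomeningeal score of 0.63. Its 3 prime minus 5 prime signal was also the highest of all arrays (0.66), and that of continuous replicate 3 came next (0.63). The part of this signal in the flagged values was not tested. Continuous replicate 3 was the lowest of its group for Gstm2 (7.18) and Nqo1 (9.53), and its leptomeningeal score of -1.54 was the lowest of all arrays.

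In limited arrays, replicate 2 was low for Glrx (10.88) and replicate 9 was high for Nfe2l2 (10.45). In water arrays, replicate 5 was high for Sod1 (13.77) and low for Gpx4 (13.07). Water replicate 6 was high for Mgst1 (10.88) and low for Msra (8.47), replicate 2 was high for Txnip (11.85), and replicate 7 was high for Gpx3 (10.24).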

How the results depend on the processing

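Limma called 0 of the 42 members in each pairwise comparison under the 17 other settings tried, 16 for the test over 3 groups, and 0 with each of the 29 arrays left out in turn (lowest 0, highest 0). At an unadjusted p under 0.05 the settings gave 1 to 11 members for continuous ethanol against water, 0 to 9 for limited ethanol against water, 0 to 3 for limited against continuous ethanol and 1 to 6 over the 3 groups. The share of all probe sets at that level was not computed for these settings. The counts therefore have no background beside them and are not a result about the members. Differences of the 15 named members that never passed had another sign than reported in 24 of 756 values of other settings and in 36 of 1305 values with an array left out. Not testing the dimmest 50 percent left 38 of the 42 members. It dropped the dimmest, Gstm3, Hmox1, Gsr and Mt1, with means of 7.83, 7.60, 7.57 and 7.48 over all arrays. With the replicate number as a block, the differences for continuous ethanol minus water were 0.22 for Gclm, -0.25 for Txnip and 0.11 for Glrx (limma, adjusted p = 0.184, 0.192 and 0.199), and 0 members were called. The 28 same-numbered pairs of arrays had correlations of -0.24 to 0.34 with a median of 0.08, 12 of them over 0.1, every pair of replicates 3 and 9 among these. As this did not hold for all pairs, the numbers were not taken to pair the samples, and a batch shared by some numbers was not tested.

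Among the pairs of members, removing the leptomeningeal score, chosen after seeing the data, gave r = 0.44 for Nfe2l2 and Nqo1 (permutation adjusted p = 0.0719), which lost its call, and r = 0.52 for Nfe2l2 and Gclm (permutation adjusted p = 0.0112), which gained one. The cause was not tested. Of the relations of members with marker scores, 55 passed, and 46 without continuous replicate 7, with no such share computed over all probe sets. With 9 or 10 arrays a group, the 95% interval lay within 0.2 of 0 for 28 of 42 members between continuous ethanol and water, and the rest still allow larger differences.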

Other observations

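Of the probe sets that carry several symbols, 2 include a metallothionein or the member without a probe set of its own. The probe set of Prdx1l1 and Prdx1, a peroxiredoxin, had 12.15 ± 0.14 with continuous ethanol, 12.15 ± 0.09 with limited ethanol and 12.16 ± 0.11 in water (log2 expression, SD). It differed by -0.02 ± 0.05 for continuous ethanol minus water (limma, adjusted p = 0.904) and by -0.01 ± 0.05 for limited ethanol minus water (adjusted p = 0.992).

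The probe set annotated to Mt1f, Ttr and Mt1 together had 11.36 ± 0.16 with continuous ethanol, 11.32 ± 0.12 with limited ethanol and 11.29 ± 0.08 in water. It differed by 0.07 ± 0.06 for continuous ethanol minus water (limma, adjusted p = 0.554) and by 0.03 ± 0.06 for limited ethanol minus water (adjusted p = 0.980). Over 29 arrays with group means removed its values had a correlation of 0.74 with Mt2A, 0.11 with the probe set annotated to Mt1 alone and -0.04 with Ttr, given as a description. Which transcript this probe set or the one annotated to Mt1 alone measures was not tested.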
